A study of Homo sapiens with 2 samples.

Results

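The HCT116 line was established from a human colon cancer. The profile described here is that of the mock cells, which carried the pEB vector without an insert and were kept in blasticidin for 2 weeks. It is 1 of 2 samples of the series and was chosen by its genotype label, control. The other sample, HCT116 cells that carried HOXA5 short RNA in the same vector under the same selection, is not compared here. Total RNA (400 ng) was converted to Cy3-labeled complementary RNA and read in a single color on an Agilent SurePrint G3 human array. With 1 array there was no replicate, no value was tested, and every value below is a measurement of this array. The labels give no culture without the vector, so the level in untransfected HCT116 cells was not measured.

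The lining of the colon is a single layer of epithelial cells that is renewed from stem cells at the base of the crypts, where Wnt signals keep cells dividing. The daughter cells leave the cycle as they move up and become absorptive colonocytes, mucus-making goblet cells, hormone-making enteroendocrine cells or tuft cells. Colon cancer lines keep parts of this program, such as simple-epithelial keratins and cell junctions, to different degrees, and HCT116 is widely used as a line with defective mismatch repair.

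Spots of non-control probes were averaged, and a probe was called detected when the scanner software marked it as well above background. The signal printed throughout is the processed signal of that software, in linear intensity units. Of 50596 probes with a usable spot, 18422 (36.4%) were detected. The 18422 ran from 7.74 to 76922, while the other probes had a median of 1.80 and reached at most 10.5. None of the 308 negative control spots was well above background, and the brightest of them read 3.71. A name could be given to 30002 probes, which represented 21613 genes. A gene counted as detected when at least 1 of its probes was, and its level is the mean log2 signal of its detected probes, given back as a linear signal. For a gene that was not detected the reading given is that of its brightest probe. By this rule 12167 genes (56.3%) were detected, and 11256 of 18374 protein-coding genes (61.3%). These shares are the background for each count of list members below.

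**Figure D1:**
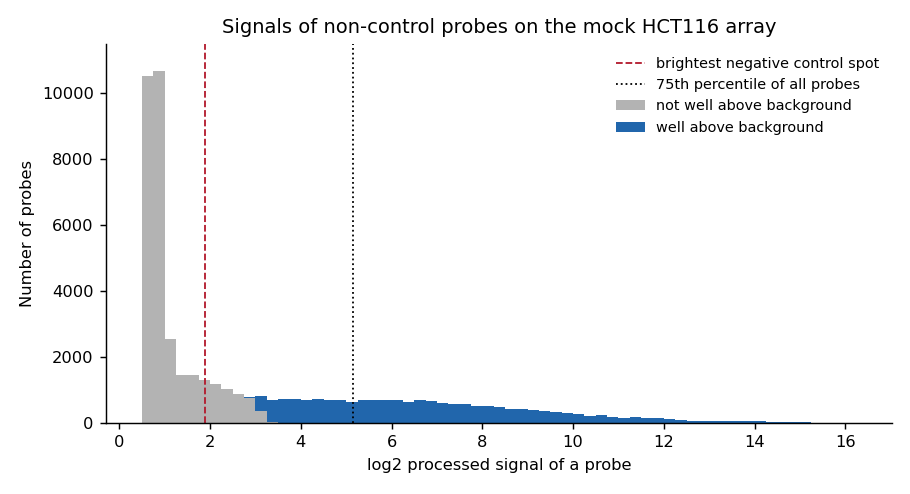
Number of non-control probes (vertical axis) by log2 processed signal (horizontal axis) on the mock HCT116 array, with probes well above background in blue and the others in gray. The dashed line is the brightest negative control spot (3.71 on the linear scale) and the dotted line the 75th percentile of all probes (35.7). Most gray probes lie in a narrow peak below the dashed line, with a tail to its right, and the blue probes form a long flat shoulder to its right.

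Detected genes had a median signal of 100.2. The lowest 20% of them lay below 26.7 and the top 10% above 1122, and 136 genes exceeded 10000. In the text a percentile is the place of a gene among the 12167 detected genes, with 100 the brightest. A rank orders probe signals and not molecules, since probes bind their targets with different strength. The genes with several probes on this array show how large that is. In 2738 genes at least 2 probes were detected, and these lay a median of 4.26-fold apart. Only 24.3% of the 2738 genes had all their detected probes within 2-fold, and 26.8% spread over more than 10-fold. By contrast, copies of the same probe on the array varied little. The SD of log2 signal over the copies of 596 probes printed 10 times was 0.17 (root mean square), from 0.34 for signals below 15 to 0.10 for signals above 1000. The scanner's own error had a median of 10.2% of the signal of a detected probe.

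The 4 genes that mark the cells were all detected. EPCAM, an adhesion molecule of simple epithelia, read 3492 ± 349 (scanner error, 1 probe), at percentile 96.5. CDH1, the E-cadherin of adherens junctions, read 278 ± 27.9 on 1 probe, at percentile 71.9. KRT18, a keratin of simple epithelia, was read by 2 probes at 17080 and 3029. KRT8, its filament partner, was read by 3 probes at 9087, 244 and 12.2, so that its mean of 300.0 (percentile 73.3) depended on which probe was taken. Its brightest probe alone would place KRT8 at percentile 98.4. The array therefore held signal for each of the 4 markers.

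The epithelial list as a whole was nearly complete. Of 30 keratin, junction and epithelial regulator genes, 27 were detected, and their median percentile was 75.7. KRT19, a further simple-epithelial keratin, read 30237 and was among the 25 brightest genes. CLDN4, a tight junction protein, read 7457, and SPINT2, an inhibitor of surface proteases, read 7021. The desmosome genes of the list were all detected over a wide range, with PKP3 at 2414, JUP at 1818 and DSP at a mean of 317, and PKP2 at 84.7, DSG2 at 55.7 and DSC2 at 40.4 below the median of detected genes. The splicing regulators ESRP1 and ESRP2, which maintain epithelial isoforms, read 59.4 and 347. The members that were not detected included KRT20, a keratin of mature colonocytes, at 1.85 and CLDN1, a tight junction protein, at 1.96. Both readings lay below that of the brightest negative control spot.

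**Figure D2:**
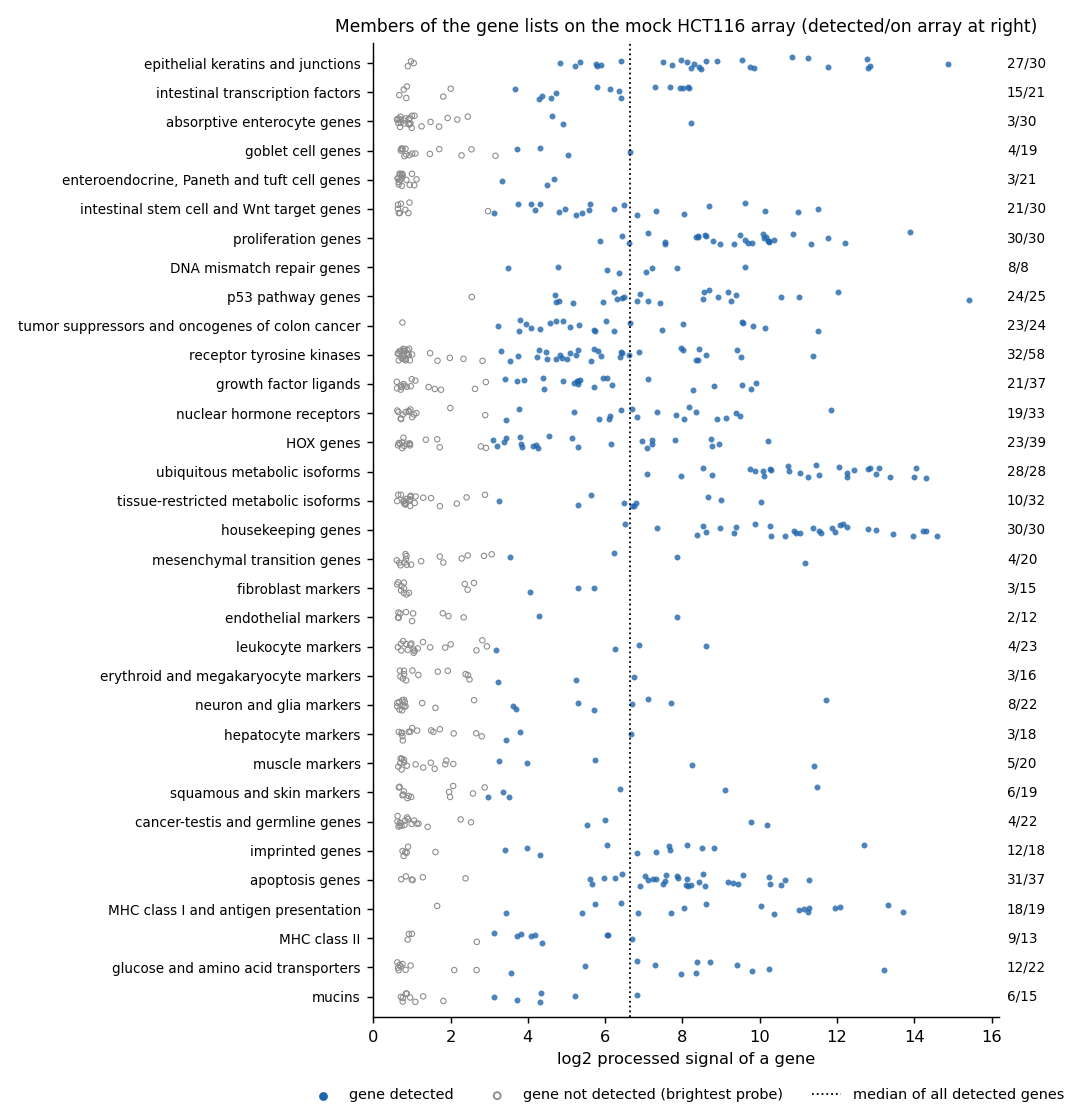
Each point is a gene of 1 of 33 lists (vertical axis) at its log2 processed signal (horizontal axis), filled when detected and open when not, with the number detected of the number on the array at the right. The dotted line is the median of all detected genes (100.2 on the linear scale). Housekeeping, proliferation and epithelial genes lie mostly to the right of it, and genes of differentiated intestinal cells and of other cell types are mostly open points at the left.

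Genes of differentiated intestinal cells were mostly not detected. The lists cover the whole intestine, small intestine included, so the counts do not measure colon differentiation alone. Of 70 genes from the enterocyte, goblet, enteroendocrine, Paneth and tuft cell lists, 10 were detected (14.3%), and of these CA2, a carbonic anhydrase, at 298, alone lay above percentile 50. In the absorptive list 3 of 30 were detected, the others being the peptide transporter SLC15A1 at 30.0 and the peptidase DPP4 at 24.5. The brush border organizer VIL1 read 1.88, the fatty acid binding protein FABP1 1.62, the disaccharidase SI 1.53 and the chloride exchanger SLC26A3 1.72, and none of these was detected. In the goblet list 4 of 19 were detected, led by FCGBP, a mucus protein, at 100.1. MUC2, the main secreted mucin of the colon, had 1 of 4 probes detected, at 13.3. The goblet regulators ATOH1 and SPDEF read 1.90 and 8.94, and the trefoil factor TFF3 read 1.75, none detected. The reading of SPDEF lay above 7.74, the lowest detected signal of the array, so its call was a close one. Of 21 enteroendocrine, Paneth and tuft cell genes, CCK (25.6), NEUROG3 (22.4) and SCG2 (10.1) were detected. CHGA, the general marker of endocrine cells, read 1.60. Among the mucins 6 of 15 were detected, led by MCAM, an adhesion molecule once counted with the mucins, at 113, and MUC4, a membrane mucin, with a mean of 37.3 over 4 probes.

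Most transcription factors that set up the intestine were detected, at low to middle signals. Of 21 on the array, 15 were detected (71.4%, against 56.3% of all named and 61.3% of protein-coding genes), none of them above percentile 80. CDX2, the master regulator of intestinal fate, read 244 ± 24.5. VDR, the vitamin D receptor, read 290, the epithelial ETS factor ELF3 282, and SOX9, a factor of crypt base cells, 259. CDX1, the relative of CDX2, was detected on 1 of 2 probes at 12.6. HNF4A, which drives enterocyte genes, read 1.81 and HNF4G 3.50, and neither was detected. GATA4 (4.005) and FOXA2 (1.72) were likewise not detected, whereas GATA6 was, at 82.6.

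Of the stem cell and Wnt target genes, 21 of 30 were detected (70.0%). MYC, a growth regulator that Wnt signals switch on, read 2938 ± 296, the Wnt inhibitor DKK1 read 2042, and RNF43, a ligase that removes Wnt receptors from the surface, read 1125. CCND1, a cyclin of the entry into the cycle, read 786. CD44 was read by 2 probes at 1938 and 86.3. Markers of crypt stem cells were detected in part. LRIG1, a regulator of receptor tyrosine kinases, read 31.4, EPHB2, a receptor of crypt base cells, had a mean of 37.7 over 3 probes, and PROM1, a surface protein also used as a stem cell marker, read 18.3. LGR5, the R-spondin receptor that marks these cells, read 1.56, ASCL2 1.64, OLFM4 1.61 and SMOC2 1.91, and these 4 were not detected. AXIN2, a widely used readout of Wnt signaling, lay at 17.0 (percentile 10.9), and LEF1, a partner of beta-catenin on DNA, was not detected at 1.58.

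All 30 proliferation genes were detected, with a median percentile of 85.9. TK1, the thymidine kinase of S phase, read 15086 ± 1509, and BIRC5, or survivin, a subunit of the mitotic passenger complex, read 4731. The replicative helicase subunit MCM3 read 3490 and TYMS, the enzyme that makes thymidylate, 2568. The lowest was TOP2A, the topoisomerase of mitotic chromosomes, at 58.3, and MKI67, the usual proliferation marker, had a mean of 87.0 over 3 probes. All 30 housekeeping genes (median percentile 94.6) and all 28 widely expressed metabolic isoforms (median percentile 95.1) were also detected. GAPDH read 20061, RPLP0 24547 and TBP, the lowest of the housekeeping genes, 91.2.

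All 8 mismatch repair genes were detected. MSH6 read 793 ± 79.6 and EXO1 149, each on 1 probe. PMS2 was read by 6 probes from 28.7 to 206. PMS1 had a mean of 66.4, MLH3 read 27.5, and MSH3 was the lowest at 11.1. RNA was measured here, so these signals say nothing of whether a protein was made.

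Of 25 p53 pathway genes 24 were detected, and ZMAT3 (5.84) was not. GDF15, a secreted stress factor, read 43422 ± 4342 and was the second brightest of all named genes. FDXR, a mitochondrial reductase, read 4152, the death receptor TNFRSF10B 2081 and the BH3-only gene BBC3 1496. CDKN1A, the cyclin-dependent kinase inhibitor p21, read 415, and MDM2, a ubiquitin ligase of the pathway, had a mean of 36.1 over 4 probes. Among apoptosis genes 31 of 37 were detected, led by DIABLO (2472) and FADD (1604). BCL2 (5.22), APAF1 (1.65), CASP1 (2.43) and RIPK3 (1.79) were not detected, while MCL1 and BCL2L1, the other main survival genes, read 130.2 and 158.

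Most genes that are commonly mutated in colon cancer were detected at low to middle signals. The list had 23 of 24 detected, with a median percentile of 34.9. SMAD3 read 762 and CTNNB1, beta-catenin, had a mean of 750.3. PIK3CA was detected on 1 of 2 probes at 15.4 and APC on 1 of 2 at 13.7. TGFBR2 was detected at 177, and its signaling partner TGFBR1, at 1.68, was the member not detected.

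Receptors and their ligands were detected in part. Of 58 receptor tyrosine kinases 32 were detected (55.2%), a share near the background, with a median percentile of 35.7. MET, the receptor of hepatocyte growth factor, read 2684 ± 268. LMTK3 read 732 and RYK, a Wnt coreceptor, 680. Of the EGF receptor family, ERBB2 read 345 on 1 probe, and ERBB3 was detected on 2 of 3 probes at 77.3 and 36.0. EGFR was detected on 2 of 3 probes at 38.8 and 12.8, with the third at 3.30. ERBB4 (1.79) was not detected. The receptors of stroma, blood vessels and blood cells, PDGFRA (1.64), PDGFRB (1.73), KDR (2.00) and KIT (1.70), were not detected either.

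Among 37 growth factor ligands 21 were detected (56.8%), a share near the background. When every probe of a gene had to be detected, 12 were left. The EGF receptor ligand EREG led with 965, and AREG, a ligand of the same receptor, was read at 1254 and 75.3 by its 2 probes. VEGFB read 874 and KITLG, the ligand of the undetected KIT, 745. EGF itself read 1.65 and HGF, the ligand of MET, 1.99, both not detected.

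Of 33 nuclear hormone receptors 19 were detected (57.6%), a share near the background. The orphan receptors NR2F6, NR2F2 and NR2F1 read 3663, 669 and 561, and ESRRA had a mean of 714. The estrogen receptors ESR1 and ESR2 read 2.16 and 2.07 and the progesterone receptor PGR 1.90, and none of these was detected.

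HOX genes encode the factors that fix position along the body axis, and they lie in 4 clusters in the order in which they are used. The array named all 39, and 23 were detected (59.0%), a share near the background. The HOXA cluster on chromosome 7 had 9 of 11 detected and the HOXB cluster on chromosome 17 had 9 of 10. The HOXC cluster on chromosome 12 had 4 of 9, and the HOXD cluster on chromosome 2 had 1 of 9, HOXD8 at 14.01. HOXB6 was the brightest at 1190 ± 119. The 3 detected members of group 9 followed, with HOXA9 read at 1001 and 244 by its 2 probes, HOXB9 at 433 and HOXC9 at 426, while HOXD9 (1.92) was not detected. HOXA7 read 224 and HOXB13, a factor of the hindgut, 149. HOXA5, the gene whose short transcript the study expressed, read 39.4 ± 4.32 on its 1 probe, at percentile 27.8. Its neighbors HOXA4 and HOXA6 read 10.7 and 9.15, just above the lowest detected signal of the array. Which of the HOXA5 transcripts this probe reads was not determined here. HOXA2, near the other end of the cluster from HOXA13, read 1.93 and was not detected.

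**Figure D3:**
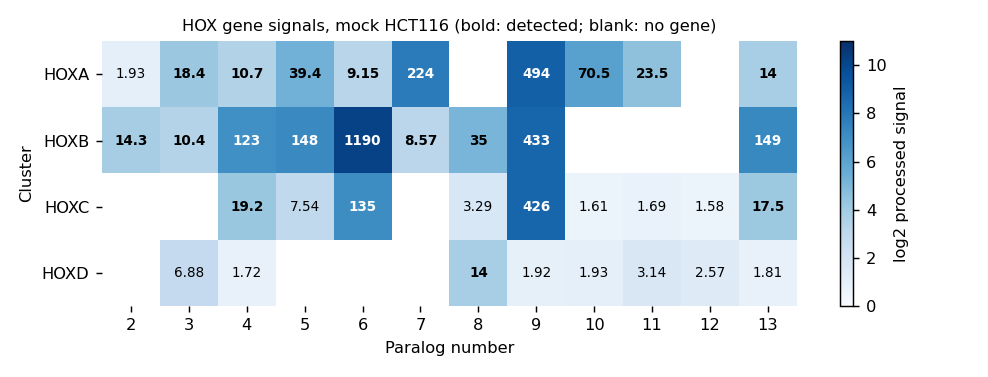
Processed signal of the 36 HOX genes of paralog groups 2 to 13 by cluster (vertical axis) and paralog number (horizontal axis). Color is the log2 signal, the number in each cell is the linear signal, and bold marks detected genes. HOXA is filled from group 3 upward and HOXB from group 2, HOXC has 4 detected members, and HOXD is nearly empty.

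Most markers of other cell types were not detected. Pooled over the lists of this paragraph, 34 of 145 markers were detected (23.4%, against 56.3% of all named and 61.3% of protein-coding genes). Of the 34, 13 were above percentile 50. For fibroblasts COL1A2, COL3A1, DCN and LUM were not detected at readings of at most 1.81, and 3 of 15 genes were detected, led by FBLN1 at 52.1. For endothelium PECAM1 (3.85) and CDH5 (1.56) were not detected, and EGFL7 read 233. For leukocytes PTPRC read 6.35, CD3E 1.64 and CD14 7.67, none detected, while CD79A read 393 and CD4 117 on single probes. For hepatocytes ALB read 2.01, and the urea cycle enzyme CPS1, which the intestine also makes, read 102. For muscle the 4 MYH and 2 MYL genes on the list were not detected, with TNNT1 at 2702 and TNNI3 at 306. For neurons SYN1, SNAP25 and STMN2 were not detected, with TUBB3, a neuronal tubulin that many cancer cells also make, at 3355, MBP at 208 on 1 of 3 probes, MAP2 at 138 and RBFOX3 at 104 on 1 of 2 probes. For squamous epithelium KRT5 (1.88), KRT14 (5.97) and TP63 (3.96) were not detected, with KRT10 at 2854 and KRT15 at 549. Of 16 erythroid and megakaryocyte genes 3 were detected, and HBG1 led at 108. HBG1 has a near-identical copy, HBG2, and the probes cannot be assigned to either.

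Of 20 genes of the mesenchymal transition 4 were detected, namely S100A4, a calcium-binding protein, at 2309, SNAI1 at 231, TGFB1 at 74.7 and TWIST1 at 11.52 on 1 of 2 probes. VIM, the intermediate filament of mesenchymal cells, read 7.28 and ZEB1, a repressor of CDH1, 8.36, both not detected and close to 7.74, the lowest detected signal. CDH2 (1.97) and FN1 (1.59) were not detected.

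Tissue-restricted isoforms were compared by count with the widely expressed forms of the same enzymes. Of 32 tissue-restricted isoforms of metabolic and cytoskeletal genes, 10 were detected, against all 28 widely expressed ones. Those above percentile 50 included COX6B2, a testis form of a cytochrome oxidase subunit, at 1048 on 1 of 2 probes (the other read 1.56), the ADP/ATP carrier SLC25A4 at 511, the sodium pump subunit ATP1A4 with a mean of 103, the enolase ENO2 at 112.2 and the aldolase ALDOC at 107. Those not detected included HK3 (2.82), PKLR (1.94), CKM (1.73) and GYS2 (3.30). Of 84 cytosolic ribosomal protein genes 82 were detected, and the 2 that were not were RPL3L, a muscle form, and RPL39L, a testis form. Of 39 proteasome subunit genes 36 were detected, and the 3 that were not were PSMA8 (testis), PSMB11 (thymus) and PSMB8 (immune cells, and others after interferon).

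The genes that present antigens were described by class. Of 19 class I genes 18 were detected, with a median percentile of 90.3. HLA-C read 4336, B2M, the light chain, 3951 and the peptide transporter TAP1 2070. HLA-G gave the highest reading at 13385. HLA class I genes are close in sequence, and their probes cannot be assigned to a single member. PSMB8 (3.14) was not detected, while PSMB9 read 1040 and PSMB10 2465. Of 13 class II genes 9 were detected (69.2%), but only at a median percentile of 12.1. CIITA, the activator of the class, and CD74, its invariant chain, were not detected at 2.00 and 1.85.

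Among germline genes 4 of 22 were detected. MAGEB2 read 1171 and MAGEA6 was read at 2557 and 295 by 2 probes. MAGEA6 is nearly identical to MAGEA3, which had no probe of its own by name, so the 2 cannot be told apart. PRAME (63.3, 1 of 2 probes) and MAGEA4 (45.9) were weaker, and meiosis and sperm genes such as SYCP1 (1.61), DDX4 (1.66) and PRM1 (2.25) were not detected. Of 18 imprinted genes 12 were detected (66.7%), with PHLDA2 at 6667 and GRB10 at a mean of 362. IGF2 was detected on 1 of 2 probes, at 449.99. PEG3 (1.77), SNRPN (1.82), NDN (1.69) and MAGEL2 (1.72) were not. Of 22 transporters of glucose, lactate and amino acids 12 were detected (54.5%), a share near the background. SLC16A3, a lactate exporter, read 9494, SLC7A5, a carrier of large amino acids, 1201 and SLC2A1, the general glucose transporter, 329.7, whereas SLC2A2, SLC2A3, SLC2A4 and SLC2A5 were not detected.

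The 25 brightest named genes were dominated by the ribosome. They included 15 cytosolic ribosomal protein genes, led by RPS21 at 41149, and 41 of the 100 brightest genes were of this family. The other 10 were SNAR-B2 (49061) and SNAR-A3 (30987), small RNAs of a primate gene family whose copies are close in sequence, RNA28SN5 (28098 over 4 probes), which is ribosomal RNA, GDF15, GSTP1 (36441), a glutathione transferase, XRCC6 (33085), the Ku70 subunit of DNA end repair, ISG15 (32783), an interferon-induced ubiquitin-like protein, KRT19, SLC66A1 (28182), a lysosomal amino acid carrier, and NME2 (25589), a nucleoside diphosphate kinase. The reading of SNAR-A3 came from an area where at least 20% of neighboring copies of replicated probes were at least 2-fold dim. Of the 25, 23 rested on 1 probe. The use of a mean over detected probes shapes this list. EEF1A1 and RPLP0 read 41997 and 39473 on their brightest probes, but their means kept them out. With the brightest probe as the value, 15 of the 25 stayed among the brightest 25.

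Whole gene families set the range of what could be called detected. Of 357 olfactory receptors, which serve the nose, 10 were detected (2.80%), and the brightest was OR2H1 at 147. None of 28 taste receptors and none of 13 type I interferon genes was detected. Of 40 defensins 1 was detected (DEFB136 at 8.81), of 17 voltage-gated potassium channels 1 and of 51 clustered protocadherins 3 (PCDHGA8 highest at 51.1). At the other end, 76 of 77 mitochondrial ribosomal protein genes (98.7%) and 56 of 65 replication-dependent histone genes (86.2%) were detected, led by MRPS24 at 6139 and H4C3 at 18773. Some genes of restricted families were bright. CYP2W1, a cytochrome P450 known from colon tumors, read 19894 ± 1989, at percentile 99.6, while 39 of the 54 genes of that family were not detected. NKX2-5, a heart factor, read 2325 ± 233 among 11 detected of 35 NKX, PAX and POU factors. LCE1D, a gene of the skin barrier, read 3445 ± 344 among 8 detected of 28, with its relatives LCE1C and LCE1A at 195 and 183. Keratin-associated proteins, known from hair, had 18 of 89 detected, 11 of 32 on chromosome 17 against 6 of 46 on chromosome 21, with KRTAP1-4 highest at 561. Each of CYP2W1, NKX2-5, LCE1D and KRTAP1-4 rested on 1 probe, and whether these probes read other transcripts was not tested.

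**Figure D4:**
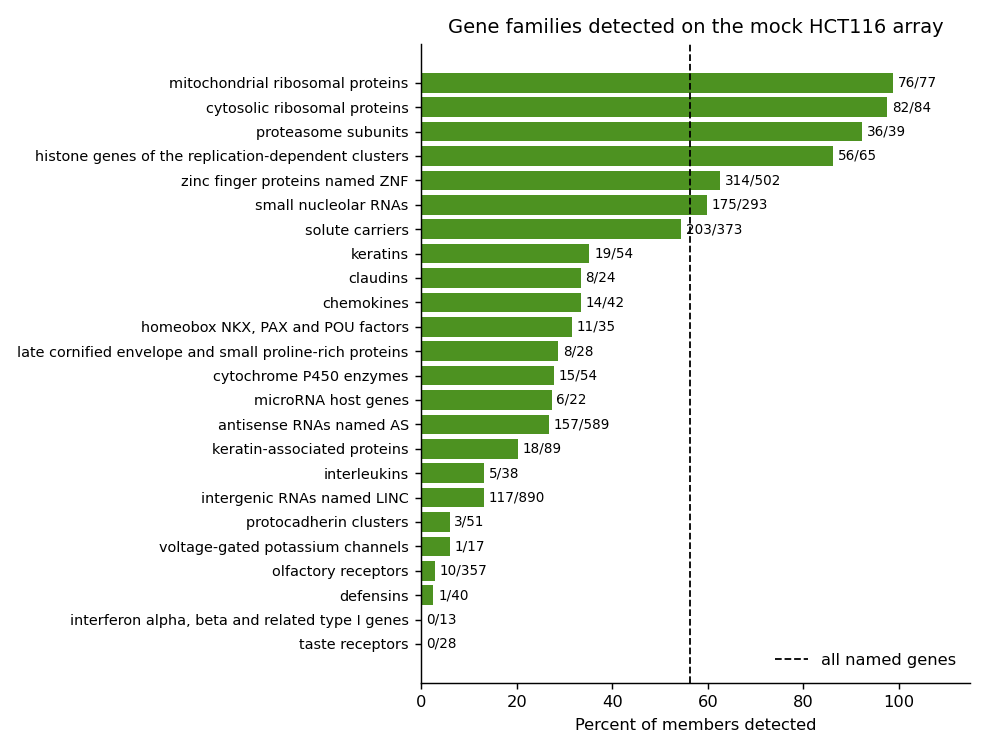
Percent of the members of 24 gene families that were detected (horizontal axis, bars from 0), with the number detected of the number on the array beside each bar. The dashed line is the share of all named genes (56.3%). Families of the ribosome and proteasome lie near 100, and receptors of the senses, defensins and type I interferons near 0.

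Detected and undetected genes were also described by a feature that the array did not use, the base composition before their start. CpG-rich starts are the usual kind of promoter of genes that most cells express, and the TATA box, to which the general transcription machinery binds, is more often found before genes of restricted expression. RefSeq bases (GRCh38.p14) before a listed start were matched by symbol to 14755 of 18374 coding genes (80.3%), that is to 82.2% of the detected and 77.3% of the undetected ones, and the 250 bases before the first listed start were used. A stretch was called CpG-rich when it was at least 55% G and C and held at least 0.65 of the CG pairs that its base content predicts. Of all 27305 RefSeq stretches of this length, 39.5% were CpG-rich, and of the 14755 before the coding genes 55.3%. Coding genes with a CpG-rich stretch were detected in 6399 of 8166 cases (78.4%), and the others in 2853 of 6589 (43.3%). The share rose with each step of the ratio of observed to predicted CG pairs, from 22.4% of 1907 genes below 0.2 to 82.6% of 1754 genes at 1 or more. Among detected genes the median of this ratio was 0.77 in the lowest 20% of signals and 0.85 in the top 20%, against 0.44 in genes not detected. The letters TATAAA on the strand of the gene, present in 7.17% of all stretches, were found before 947 of the coding genes (6.42%). Of these 37.0% were detected, against 64.5% of the genes without the letters. On either strand GGGCGG, which contains a CG pair, was before 57.5% of the 14755 coding genes, 68.4% of the detected and 39.3% of the undetected ones. For CCAAT these shares were 34.6%, 35.6% and 32.9%. Over all RefSeq stretches GGGCGG was in 42.3% and CCAAT in 33.0%.

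**Figure D5:**
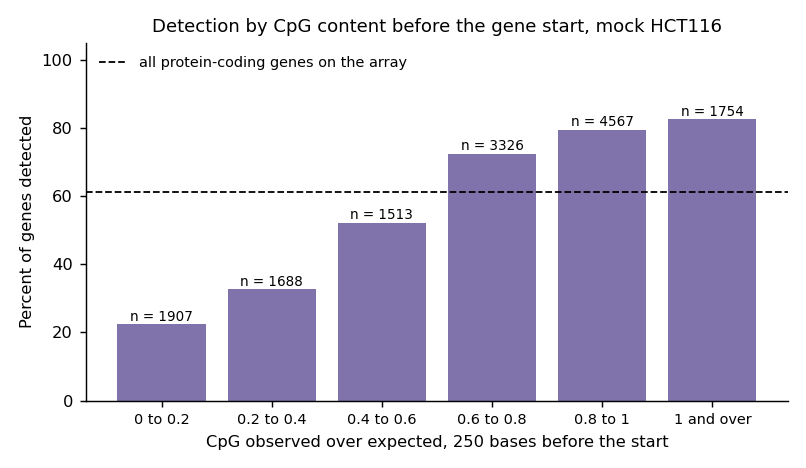
Percent of protein-coding genes detected on the mock HCT116 array (vertical axis) by the ratio of observed to expected CG pairs in the 250 bases before the start (horizontal axis), with the number of genes above each bar. The dashed line is the share of all protein-coding genes (61.3%). The bars climb from 22.4% at the left to 82.6% at the right.

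The stretches before 5 genes named above show the range, and were chosen after their values were seen. Each runs 5′ to 3′ on the strand of the gene and ends at the base before the start, with every CG pair and any TATAAA in capitals and the other bases in lower case. MCM2, a helicase subunit detected at 1154, and DSP, the desmosome linker detected at a mean of 317, have CpG-rich stretches with 30 and 33 CG pairs. CLDN4 was detected at 7457 with 4 CG pairs before its start, so a bright gene need not have a CpG-rich one. FABP1 and KRT20, both not detected, have 4 and 2 CG pairs, and FABP1 has TATAAA close to its start.
MCM2 (chr3:127598161-127598410, forward strand): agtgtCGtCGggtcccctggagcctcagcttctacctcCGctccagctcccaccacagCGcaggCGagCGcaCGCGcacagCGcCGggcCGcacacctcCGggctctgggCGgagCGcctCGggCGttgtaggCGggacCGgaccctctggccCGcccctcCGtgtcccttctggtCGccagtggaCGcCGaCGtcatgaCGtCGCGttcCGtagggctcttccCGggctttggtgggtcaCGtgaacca
DSP (chr6:7541421-7541670, forward strand): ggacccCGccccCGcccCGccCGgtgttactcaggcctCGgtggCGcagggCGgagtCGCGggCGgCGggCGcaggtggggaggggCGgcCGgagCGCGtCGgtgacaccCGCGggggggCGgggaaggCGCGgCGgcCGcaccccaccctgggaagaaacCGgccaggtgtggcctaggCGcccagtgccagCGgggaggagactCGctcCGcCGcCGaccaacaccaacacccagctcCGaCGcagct
CLDN4 (chr7:73830746-73830995, forward strand): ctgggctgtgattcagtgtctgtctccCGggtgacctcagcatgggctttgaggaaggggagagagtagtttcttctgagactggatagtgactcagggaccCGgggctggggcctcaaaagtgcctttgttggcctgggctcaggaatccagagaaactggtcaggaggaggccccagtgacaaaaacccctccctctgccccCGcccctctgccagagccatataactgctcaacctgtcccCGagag
FABP1 (chr2:88128063-88128312, reverse strand): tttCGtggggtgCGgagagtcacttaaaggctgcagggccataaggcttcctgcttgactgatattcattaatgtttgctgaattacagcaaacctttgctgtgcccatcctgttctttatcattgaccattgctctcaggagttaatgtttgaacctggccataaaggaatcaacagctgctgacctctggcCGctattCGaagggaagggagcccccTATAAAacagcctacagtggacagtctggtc
KRT20 (chr17:40885243-40885492, reverse strand): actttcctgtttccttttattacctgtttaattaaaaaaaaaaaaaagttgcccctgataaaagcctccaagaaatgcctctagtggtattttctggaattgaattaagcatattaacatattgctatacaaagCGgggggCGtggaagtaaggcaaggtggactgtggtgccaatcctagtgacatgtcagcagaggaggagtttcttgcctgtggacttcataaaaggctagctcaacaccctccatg
The reverse also occurred, since CLDN1 has 28 CG pairs in its stretch and was not detected. A listed start may not be the one that HCT116 cells use, and the letters in a window are a description of it.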

How the data were processed

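Per the labels, total RNA of mock HCT116 cells was hybridized to 1 single-color Agilent array. Per the file headers, the authors quantified the spots with Feature Extraction 11.5.1.1. The intensity values used are its processed signals, which that software had corrected for background, with an error and flags for each spot. The file also holds median foreground and background signals, which only the normexp alternative below used. Of 62976 spots 58717 were not controls. No spot was saturated, and 367 spots flagged as outliers were left out. Log2 signals of the spots of a probe were averaged (Python 3.11.15, pandas 2.3.3, numpy 2.4.6), and accessions without versions were matched to RefSeq symbols (GRCh38.p14). No scaling acts within 1 array. The deposited table of log2 values was not used, since each of its probes is centered over both samples. The 33 lists (784 genes, 769 on the array) and 24 families were chosen with earlier results of these data known. The genes named are the 4 markers, the 25 brightest genes, the 2 to 4 highest members and about 4 undetected members of each list, members of lists of other cell types, germline genes and restricted isoforms above percentile 50, HOX, EGF receptor family, mismatch repair genes and ESR1, and the brightest member of each restricted family. Other genes were named for their place in a count or for their role, after their values were seen. The steps were tested on simulated data. Alternatives were other detection flags and filters, other values per gene, normexp background correction (limma 3.58.1, R 4.3.3, offset 50) and leaving out uneven areas of the grid. The number of arrays limits the precision, and the error given is that of the scanner software and does not cover cultures. Some members of the lists are counted but not reported by name here.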

Additional observations from a re-analysis of the deposited data

Results flagged for a closer look

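Probes that could not be matched to a gene symbol entered no list, and 2810 of 20594 (13.6%) of them were well above background, against none of the 308 negative control spots. Their median signal was 37.3, against 98.0 for detected probes with a symbol. By the kind of identifier, 527 of 7448 lincRNA probes (7.08%), 830 of 6307 Ensembl probes (13.2%), 445 of 2079 RefSeq-style probes (21.4%) and 1008 of 4760 others (21.2%) were detected. What these probes read was not tested.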

How the results depend on the processing

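No paired analysis was possible because the group held 1 array. Of 35 alternative values of the main counts and measures, 28 stayed within 1.5 times the value given. With the scanner's less strict flag (positive and significant), 29393 probes were detected, 82 of the 145 markers of other cell types and 28 of the 70 genes of differentiated intestinal cells, but that flag also marked 7 of 308 negative control spots and 97 of 357 olfactory receptors (27.2%). With detected probes kept only above the 75th percentile of the array, 16 and 2 genes of these pools were left. With every signal above the 20th percentile kept in place of the flag, 18964 genes passed. With the brightest probe as the value of a gene, 15 of the 25 brightest genes stayed among the brightest 25. Of 144 further values, for single markers and lists, 101 kept within the same limits (for a marker's percentile, the spread between copies) and 43 moved. The strict flag near background is the limit of this array: probes read between 7.74, the lowest detected signal, and 10.5, the highest undetected one, fell on either side of it (ZEB1, at 8.36, was not detected), and a gene not detected here is one whose probes gave no signal well above background, not one shown to be silent. Of 6221 genes with several probes, 1672 had some detected and some not.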

Other observations

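Of 2248 long non-coding RNAs with a symbol 457 were detected (20.3%), with a median signal of 28.7, against 61.3% and 107.9 for protein-coding genes. Of 295 small nucleolar RNAs, which guide the modification of ribosomal RNA, 175 were detected (59.3%), led by SNORA16A at 6030. Of 632 transcribed pseudogenes 234 were detected (37.0%). Among RNAs named LINC 117 of 890 were detected (13.1%), led by LINC01001 at 3245, and among those named as antisense 157 of 589 (26.7%), led by EPB41L4A-AS1 at 2737. The RNA components of telomerase, RNase P and RNase MRP read 852, 190.5 and 631.

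Among chromosomes 1 to 22 and X, the share of protein-coding genes detected was highest on chromosome 22 (298 of 405, 73.6%) and chromosome 16 (69.6%). It was lowest on chromosome X (364 of 736, 49.5%) and chromosome 21 (107 of 206, 51.9%). Zinc finger genes named ZNF were detected in 314 of 502 cases (62.5%), near the 61.3% of all coding genes, but their detected members had a median percentile of only 26.8.

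A small part of the grid was uneven. Of 5960 copies of probes printed 10 times and detected, 46 (0.772%) were at least 2-fold dimmer than their probe's median and none was as much brighter. Spots with such copies nearby made up 0.948% of the array, and 22 of the 58 copies inside these areas were dim. All the probes of 144 genes lay there.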
